A study of Oryza sativa with 12 samples.

Results

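ACO1 and ACS2 are genes for the enzymes of the last steps of ethylene synthesis in rice, and their transcripts were read here in shoots of seedlings exposed to alkali salts. They were found by symbol or synonym in the array annotation, joined to the RefSeq gene table of the Japonica group (assembly ASM3414082v1). ACO1 is LOC4347225 on chromosome 9 and ACS2 is LOC4336750 on chromosome 4, 2 of the 17905 genes measured. Each is read by 1 probe set, Os.12201.2.S1_at for ACO1 and Os.49507.1.S1_at for ACS2, of 57258 probe sets tested, so that no further probe set of either gene was at hand to set beside it. Both genes were chosen because of their difference between alkali and control shoots in an earlier treatment of these arrays, and that difference is therefore given as a description, without a test.

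The 12 Affymetrix rice arrays fall into 4 groups of 3 biological replicates. They are K83 under alkali, K83 in control medium, Jijing88 under alkali and Jijing88 in control medium. Seedlings were 7 days old when they were moved into new hydroponic medium with alkali salts at 50 mM or with none, and after 24 h the shoots of 10 seedlings were pooled for each array. Which salts were used and at what pH is not stated in the labels, no group had a neutral salt, and nothing further is said of K83. Effects of alkalinity, sodium and osmotic stress therefore cannot be told apart.

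Ethylene is a gaseous plant hormone made from methionine. S-adenosylmethionine (SAM) synthetases make SAM, ACC synthases (ACS) turn it into 1-aminocyclopropane-1-carboxylate (ACC), usually the limiting step, and ACC oxidases (ACO) oxidise ACC to ethylene. The by-product methylthioadenosine is returned to methionine by the Yang cycle, which in grasses also serves the synthesis of nicotianamine and phytosiderophores from SAM. Receptors of the ETR and ERS families repress the pathway in the absence of ethylene, and the signal passes through EIN2 to transcription factors of the EIN3/EIL family. In rice, ethylene is best known for its part in the growth response to flooding.

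Values are log2 signals per probe set. Array medians lay between 5.12 and 5.18 and 75th percentiles between 8.03 and 8.10, and 3 arrays per group limit the precision. The 6 measured markers of green shoot were above the array medians in every group, with group means from 8.96 to 14.62. Among markers of tissues a shoot sample should lack or hold little of, 2 of 3 for root, 3 of 7 for seed and 3 of 9 for meristem were above the medians in all groups. The mean over the green shoot markers was 12.63 to 12.80 in K83 alkali and 12.84 to 12.94 in K83 control arrays, and 12.83 to 12.96 in Jijing88 alkali and 12.50 to 12.69 in Jijing88 control arrays. It thus stood apart between the groups in all 4 comparisons, lower with alkali in K83 and higher with alkali in Jijing88 (p = 0.1 each, the lowest that an exact two-sided permutation test of 3 against 3 can give). The markers did not all move alike. CAB2R, LHCP, PORA and PORB went with the mean. RBCS went the other way, with means of 14.62 under alkali and 14.58 in control medium in K83, and 14.39 and 14.52 in Jijing88. RCA had means of 13.57 and 13.58 in K83, and was lower with alkali in Jijing88 (13.04 and 13.26). Of the 6 green markers limma called 1 with alkali in K83, 3 with alkali in Jijing88, 1 between the genotypes in control medium, 5 between them under alkali and 3 for the difference between the alkali effects. In the same order, the shares called over all probe sets were 6.46%, 8.36%, 11.6%, 14.3% and 0.629%. The mean over the root markers was 6.95 to 7.03 in K83 alkali and 7.17 to 7.76 in K83 control arrays, and 6.83 to 7.0 in Jijing88 alkali and 6.87 to 7.10 in Jijing88 control arrays, apart with alkali in K83 and between the genotypes in control medium (exact permutation test, p = 0.1 each). The part of these markers in the results was not tested. One array stood apart. In Jijing88 control replicate 3, 573 probe sets lay more than 1 log2 unit from the mean of the other 2 arrays of its group, against 14 to 239 probe sets in the other 11 arrays, and results that rest on it are given with and without it.

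ACO1, the ACC oxidase gene, had higher signals under alkali than in control medium in both genotypes, and lower signals in K83 than in Jijing88 in both media. In K83 its log2 signals were 11.76, 11.71 and 11.72 under alkali, against 10.87, 10.89 and 10.89 in control medium. In Jijing88 they were 12.26, 12.26 and 12.31 under alkali, against 11.60, 11.26 and 11.71 in control medium. Within each genotype every alkali array was above every control array. The alkali arrays of ACO1 all lay above the control arrays in both genotypes at once, as they did for 3.50% of all probe sets, a share from which nothing is read because the gene was chosen on these comparisons.

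The group means of ACO1 were 11.73 ± 0.03 in K83 alkali and 10.88 ± 0.01 in K83 control arrays (SD, n = 3 each), a difference of 0.85 or 1.80-fold. They were 12.28 ± 0.03 in Jijing88 alkali and 11.52 ± 0.23 in Jijing88 control arrays (SD, n = 3 each), a difference of 0.75 or 1.69-fold. Of all probe sets, 1.06% had a larger difference in K83 and 2.05% in Jijing88. Without Jijing88 control replicate 3 the difference in Jijing88 was 0.85. The 25S ribosomal RNA control signal ranged from 7.87 to 9.68 over the Jijing88 alkali arrays, in which ACO1 lay within 12.26 to 12.31. Another RNA quality control, the 3-prime minus 5-prime difference of actin, was 3.51 to 3.55 in K83 alkali and 3.63 to 3.76 in Jijing88 alkali arrays. These groups were apart (exact permutation test, p = 0.1), and the groups overlapped in the other comparisons. The part of RNA quality in the alkali differences and in the genotype differences of ACO1 and ACS2 was not tested.

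The comparison of genotypes asked whether ACO1 differs between K83 and Jijing88 in the same medium. The choice of the genes did not name these comparisons, but it used the same arrays, so the p-values are not independent of it. In control medium ACO1 was lower in K83 by a log2 difference of -0.64 (95% confidence interval -0.86 to -0.42; limma, adjusted p = 0.00087). Under alkali it was lower in K83 by -0.55 (95% confidence interval -0.76 to -0.33; limma, adjusted p = 0.00235). The arrays of the genotypes did not overlap in either medium, as in 29.2% of all probe sets in control medium and 31.2% under alkali. The highest level was that of Jijing88 under alkali, followed by K83 under alkali, Jijing88 in control medium and K83 in control medium. K83 under alkali and Jijing88 in control medium, 0.21 apart, differed by less than the SD of the Jijing88 control arrays.

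The alkali effect on ACO1 was 0.85 in K83 and 0.75 in Jijing88, and these effects differed by 0.09. No test of that difference is given, since it is made of the values on which the gene was chosen. With each array left out in turn it ran from 0.00 to 0.22. A genotype difference at 1 probe set holds any difference in how its probes match the transcript of each genotype, and the 2 cannot be told apart here. In pooled shoots, fewer cells that express a gene and less RNA per cell cannot be told apart either.

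**Figure D1:**
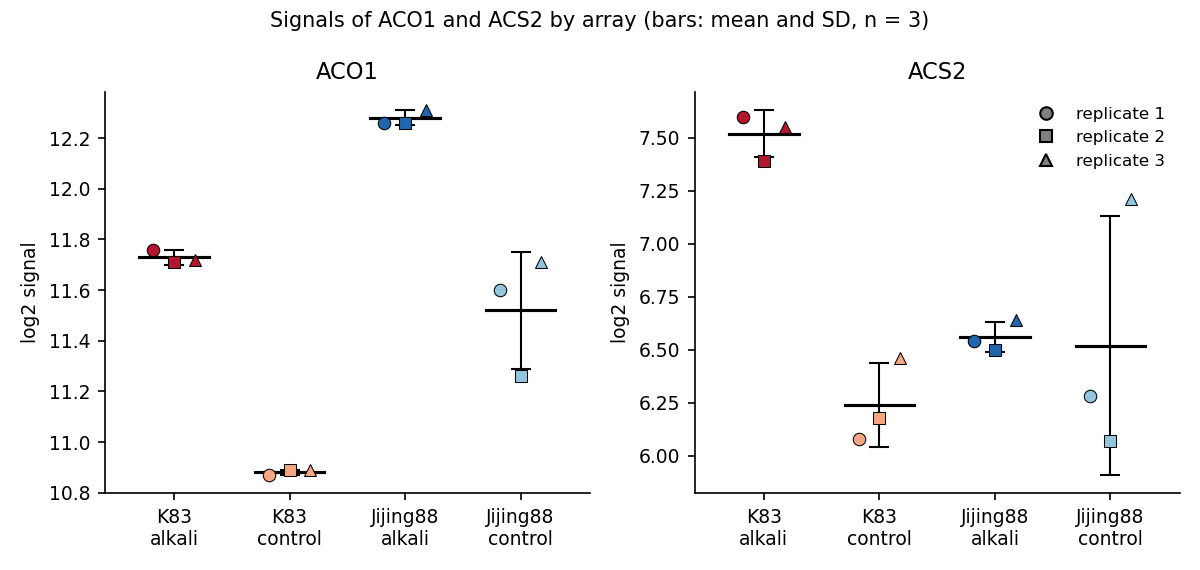
Log2 signals (vertical axes, which do not start at 0) of ACO1 on the left and ACS2 on the right in each of the 12 arrays, by group; symbols give the replicate, horizontal lines the mean and error bars the SD (n = 3). ACO1 is above its control arrays in both genotypes, while ACS2 is highest in K83 alkali arrays and Jijing88 control replicate 3, at 7.21, stands above the Jijing88 alkali arrays.

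ACS2, the ACC synthase gene, was highest in K83 under alkali. In K83 its log2 signals were 7.60, 7.39 and 7.55 under alkali, against 6.08, 6.18 and 6.46 in control medium. In Jijing88 they were 6.54, 6.50 and 6.64 under alkali, against 6.28, 6.07 and 7.21 in control medium. In K83 the groups were apart, and in Jijing88 the alkali arrays lay between control replicates 1 and 2 on one side and control replicate 3 on the other. All ACS2 signals were above the array medians and below the 75th percentiles.

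The group means of ACS2 were 7.52 ± 0.11 in K83 alkali and 6.24 ± 0.20 in K83 control arrays (SD, n = 3 each), a difference of 1.28 or 2.42-fold, and 0.458% of all probe sets had a larger difference. They were 6.56 ± 0.07 in Jijing88 alkali and 6.52 ± 0.61 in Jijing88 control arrays (SD, n = 3 each), a difference of 0.04 that lies within the spread of the control arrays. Without Jijing88 control replicate 3 the Jijing88 control mean was 6.17 (n = 2) and the difference 0.39, or 1.31-fold, with both remaining control arrays below the 3 alkali arrays. Without Jijing88 control replicate 2 the difference was -0.18 and without replicate 1 it was -0.08, so that its direction in Jijing88 depends on single control arrays. In both members the alkali arrays of K83 lay above all its control arrays, as in 12.4% of probe sets. In Jijing88 this held for ACO1 alone of the 2, against 10.2% of probe sets.

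Under alkali ACS2 was 1.94-fold higher in K83 than in Jijing88, a log2 difference of 0.95 (95% confidence interval 0.48 to 1.43; limma, adjusted p = 0.00951). This test reuses the K83 alkali arrays whose difference from control went into the choice of ACS2. The choice may favour its outcome, and the p-value is not independent of it. All 3 K83 alkali arrays lay above the 3 Jijing88 alkali arrays, the closest of them by 0.75. In control medium the difference was -0.28 and did not pass (95% confidence interval -0.75 to 0.19; limma, adjusted p = 0.493). It was 0.06 without Jijing88 control replicate 3 (limma, adjusted p = 0.836). The order of levels from the highest was K83 under alkali, Jijing88 under alkali, Jijing88 in control medium and K83 in control medium, and of these neighbours only the first pair did not overlap. Of the 2 genes, ACO1 alone was called in control medium, lower in K83, against 11.6% of probe sets called in either direction and 5.44% called lower. Both were called under alkali, against 14.3% of probe sets, with ACO1 lower, as were 7.25%, and ACS2 higher in K83, as were 7.05%.

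The alkali effect on ACS2 was 1.28 in K83 and 0.04 in Jijing88. These effects differed by 1.24. No test of that difference is given for ACS2 either, for the same reason. With each array left out in turn it ran from 0.89, without Jijing88 control replicate 3, to 1.46, without Jijing88 control replicate 2, with a positive sign each time.

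**Figure D2:**
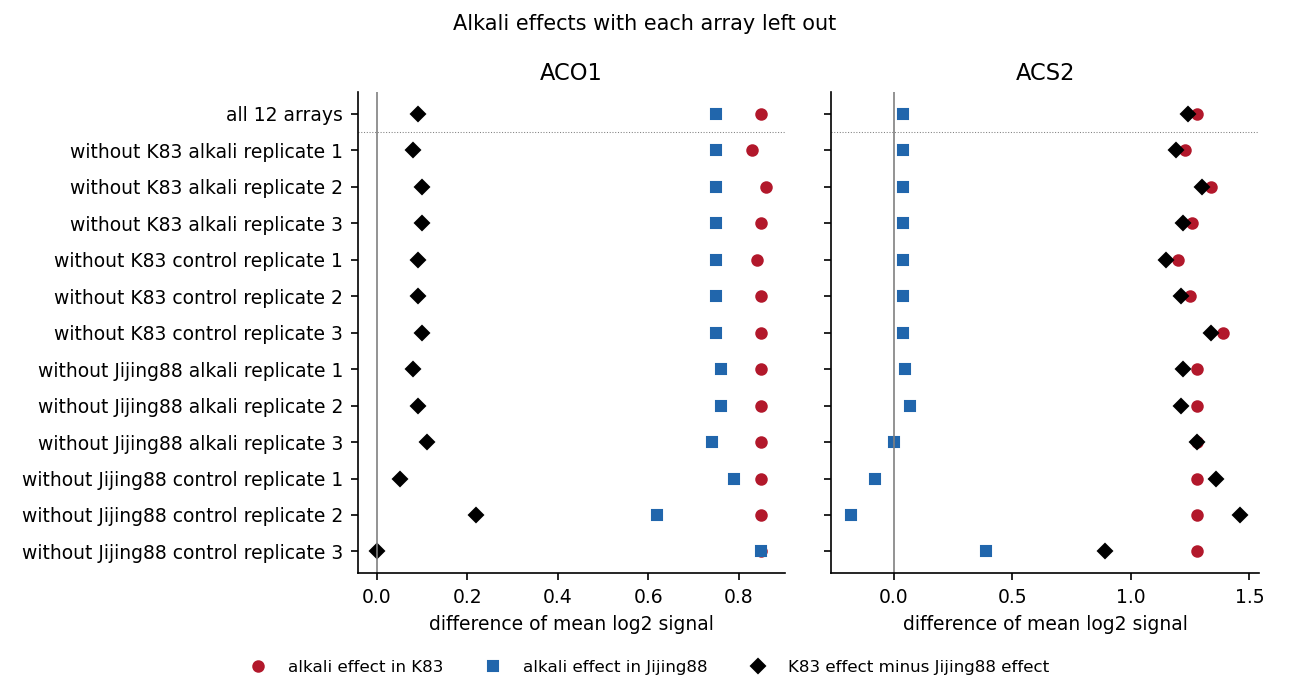
Alkali effects in K83 (circles) and Jijing88 (squares) and their difference (diamonds), as differences of mean log2 signal on the horizontal axes, with all 12 arrays and with each array left out in turn. The ACS2 effect in Jijing88 runs from -0.18 to 0.39 and changes sign with the Jijing88 control array left out, while the ACO1 effects keep within 0.62 to 0.86.

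The Jijing88 control arrays were also widely spread in NAS1 and NAS2, the nicotianamine synthase genes that draw on the same SAM as ACS2. NAS1 had log2 signals of 13.76, 13.23 and 13.51 in Jijing88 alkali arrays, against 11.43, 9.96 and 13.42 in Jijing88 control arrays. NAS2 had 13.28, 12.87 and 13.09 in Jijing88 alkali arrays, against 11.47, 10.15 and 13.22 in Jijing88 control arrays. In ACS2 and both NAS genes the third Jijing88 control array was thus the highest of its group. It lay above all Jijing88 alkali arrays for ACS2, and among them for NAS1 and NAS2. Its part in the ACS2 result was not tested beyond leaving it out.

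Other named genes of the pathway were read beside ACO1 and ACS2. By name, 15 further genes were measured, namely 1 ACC synthase gene, 5 genes of SAM synthesis and the Yang cycle, 5 receptor genes, 3 signalling genes and 1 response factor gene. In K83 2 of the 15 rose under alkali and none fell by limma, or 13.3%, against 6.46% of all probe sets (2.61% higher and 3.85% lower), and 4 had an unadjusted p under 0.05, as had 20.0% of all probe sets. In Jijing88 4 rose and 1 fell, or 33.3%, against 8.36% of all probe sets (4.29% higher and 4.07% lower). The median difference over the 15 genes was 0.12 in K83 and 0.11 in Jijing88, beside -0.0064 and -0.015 over all probe sets. With each array left out in turn the number called was 1 to 3 in K83 and 2 to 5 in Jijing88. Most of the 15 genes were above the array medians. With dim probe sets left out, 4816 of 30030 probe sets were called in K83 and 5584 of 30030 in Jijing88. Those shares are larger than the shares over all probe sets. No set test was made, and no excess is read from these counts. Genes of this pathway without a name in the annotation are missing from these counts.

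ACS1, the other measured ACC synthase gene, lay near the array medians in every group, from 5.05 ± 0.12 in K83 alkali arrays to 5.23 ± 0.13 in K83 control arrays (SD, n = 3 each). Its alkali effect was -0.17 in K83 (limma, adjusted p = 0.32) and 0.06 in Jijing88 (limma, adjusted p = 0.796). At so dim a probe set a change in transcript level may go unseen.

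MTK1, a gene for methylthioribose kinase of the Yang cycle, rose under alkali in both genotypes. Its log2 signals were 11.36, 11.43 and 11.41 in K83 alkali arrays, against 10.88, 10.78 and 10.82 in K83 control arrays. In Jijing88 they were 12.11, 12.04 and 12.24 under alkali, against 11.27, 11.06 and 11.28 in control medium. The groups were apart in each genotype, with a rise of 1.48-fold in K83 (log2 0.57, limma, adjusted p = 0.00174) and 1.90-fold in Jijing88 (log2 0.93, limma, adjusted p = 4.19e-05). Like ACO1, MTK1 was lower in K83 than in Jijing88 in control medium (-0.38, limma, adjusted p = 0.0113) and under alkali (-0.73, limma, adjusted p = 7.72e-05). The effects differed by -0.36, which did not pass (limma, adjusted p = 0.208).

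IDI2, a gene for the isomerase that follows methylthioribose kinase in the cycle, was at 8.25 ± 0.08 in K83 alkali and 8.29 ± 0.07 in K83 control arrays, and at 8.82 ± 0.32 in Jijing88 alkali and 8.32 ± 0.08 in Jijing88 control arrays (SD, n = 3 each). It rose by 0.50 in Jijing88 (limma, adjusted p = 0.0322), a call lost without any of the 3 Jijing88 control arrays or Jijing88 alkali replicates 1 or 2 (limma, adjusted p = 0.0705 to 0.12), in a fit to the 2 Jijing88 groups alone (0.119) and over the mean of its probe sets (0.0782). In K83 its difference was -0.04 (limma, adjusted p = 0.899), and the effects differed by -0.54 (limma, adjusted p = 0.209; 0.0426 without Jijing88 alkali replicate 3, with a difference of -0.72). Its further probe set gave -0.12 in K83 and 0.43 in Jijing88.

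ARD4, named for acireductone dioxygenase, the last enzyme before methionine is restored from its keto acid, differed between genotypes and not past the threshold with alkali. It was at 11.63 ± 0.12 in K83 and 10.99 ± 0.14 in Jijing88 under alkali, and at 11.60 ± 0.07 in K83 and 10.97 ± 0.16 in Jijing88 in control medium (SD, n = 3 each). K83 was higher by 0.64 under alkali (limma, adjusted p = 0.000983) and by 0.63 in control medium (limma, adjusted p = 0.00122). The SAM synthetase genes SAM1 and SAM2 had alkali differences between -0.06 and 0.10 over both genotypes, none of which passed in limma (adjusted p = 0.683 to 0.987). SAM2 was lower in K83 under alkali by -0.36 (limma, adjusted p = 0.0449), a call that did not hold when 9 of the 12 arrays were left out in turn (limma, adjusted p = 0.0508 to 0.157), nor over the mean of its probe sets (-0.18, limma, adjusted p = 0.199), nor with quantile normalization or in a fit to the 2 alkali groups alone (limma, adjusted p = 0.059 and 0.053).

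**Figure D3:**
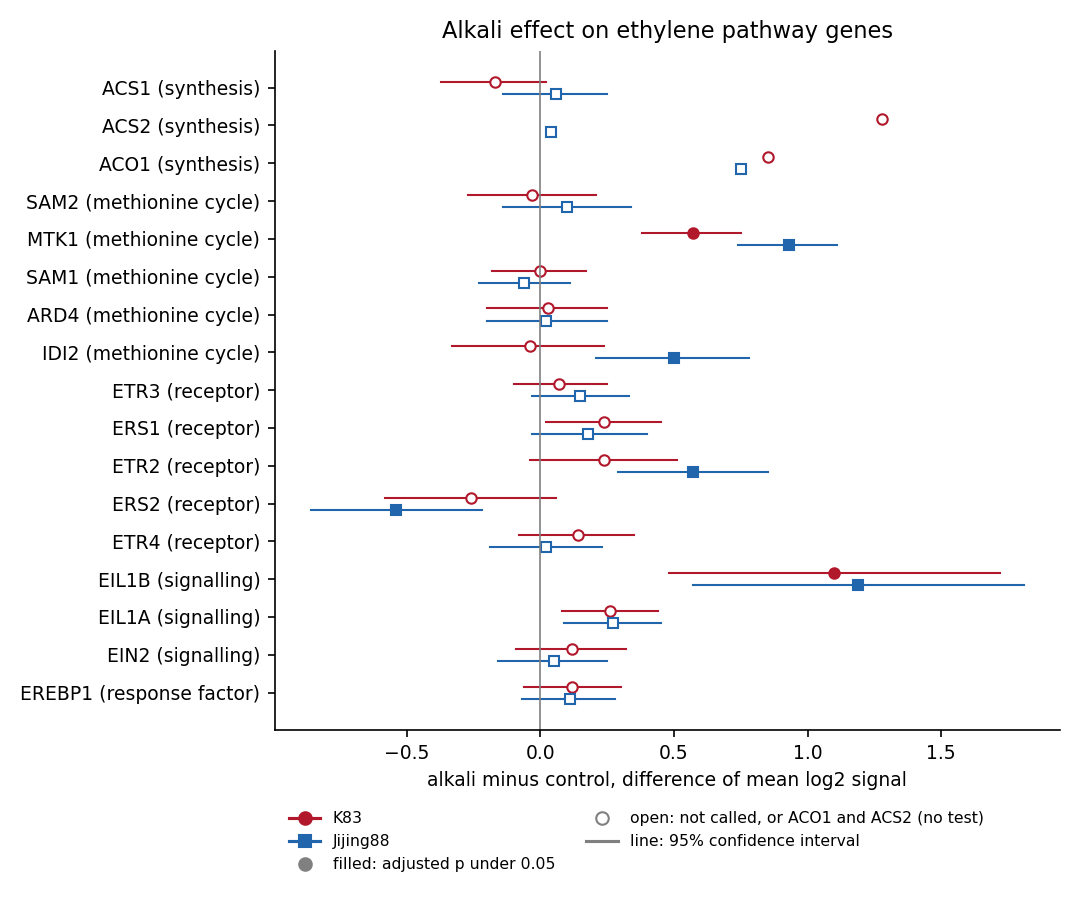
Difference of mean log2 signal, alkali minus control, on the horizontal axis for the 17 measured genes of the ethylene pathway, with K83 as red circles above Jijing88 as blue squares; filled symbols passed an adjusted p of 0.05, lines are 95% confidence intervals, and ACO1 and ACS2 are open because no test is given for them. MTK1 and EIL1B are filled in both genotypes, and most other intervals include 0.

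Among the receptor genes ERS2 and ETR2 moved in opposite directions in Jijing88. ETR2 was at 9.19 ± 0.25 in Jijing88 alkali and 8.61 ± 0.08 in Jijing88 control arrays (SD, n = 3 each) and rose by 0.57 (limma, adjusted p = 0.0142; 0.0629 without Jijing88 alkali replicate 3, with a difference of 0.46). ERS2 had log2 signals of 6.83, 6.87 and 6.99 in Jijing88 alkali arrays, against 7.63, 7.65 and 7.02 in Jijing88 control arrays, and fell by 0.54 (limma, adjusted p = 0.0405). That call was lost in a fit to the 2 Jijing88 groups alone (limma, adjusted p = 0.116) and when any of 9 arrays was left out, in both genotypes, among them Jijing88 control replicates 1 and 2 and all 3 Jijing88 alkali arrays (limma, adjusted p = 0.0536 to 0.178). Without Jijing88 control replicate 3, again the control array nearest to the alkali arrays, the difference was -0.75 (limma, adjusted p = 0.00112).

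In K83 no receptor gene was called by limma, and 1 of 5 had an unadjusted p under 0.05, beside 20.0% of all probe sets. Under alkali ETR2 differed by 0.24 in K83 (limma, adjusted p = 0.343) and ERS2 by -0.26 (limma, adjusted p = 0.371). The differences between the genotypes' effects were -0.34 for ETR2 (limma, adjusted p = 0.441) and 0.28 for ERS2 (limma, adjusted p = 0.598), so that neither receptor gene was shown to respond differently in the 2 genotypes. The further probe set of ETR2 gave -0.10 in K83 and 0.33 in Jijing88. ERS2 was higher in K83 than in Jijing88 under alkali by 0.66 (limma, adjusted p = 0.00829). The receptor genes ERS1, ETR3 and ETR4 had alkali differences between 0.02 and 0.24, none of them called, and ETR4 lay below the array medians at 4.10 to 4.23.

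Of the signalling genes EIL1B, 1 of 2 genes annotated as EIL1, a transcription factor of the EIN3/EIL family, had the largest alkali effect among the 15 genes in both genotypes. Its log2 signals were 8.76, 9.01 and 8.98 in K83 alkali arrays, against 7.44, 7.60 and 8.40 in K83 control arrays. In Jijing88 they were 8.64, 9.19 and 8.78 under alkali, against 7.30, 7.33 and 8.41 in control medium. The groups were apart in each genotype, and the third control array was the highest of its group in both. EIL1B rose 2.15-fold in K83 (log2 1.1, limma, adjusted p = 0.0381) and 2.28-fold in Jijing88 (log2 1.19, limma, adjusted p = 0.0212), and the effects differed by -0.08 (95% confidence interval -0.96 to 0.79; limma, adjusted p = 0.953).

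The call of EIL1B in K83 was lost without any of 6 arrays, namely K83 control replicates 1 or 2, any K83 alkali array or Jijing88 alkali replicate 3 (limma, adjusted p = 0.0524 to 0.142). In Jijing88 it was lost without any of 4, namely control replicates 1 or 2 or alkali replicates 2 or 3 (limma, adjusted p = 0.0541 to 0.104). With limma-trend neither call passed (adjusted p = 0.0954 in K83 and 0.0686 in Jijing88). Without Jijing88 control replicate 3 the Jijing88 rise was 1.55 (limma, adjusted p = 0.0016). EIL1A, the other gene annotated as EIL1, is the neighbour of EIL1B on chromosome 3. It is also named MHZ6 and is known in rice as a regulator of the ethylene response of roots. Its alkali differences were 0.26 in K83 (limma, adjusted p = 0.088) and 0.27 in Jijing88 (limma, adjusted p = 0.0693). Both passed without Jijing88 control replicate 3 (limma, adjusted p = 0.0475 and 0.0196), without dim probe sets (0.0427 and 0.033), with limma-trend (0.0244 and 0.0172) and with array weights (0.0413 and 0.0278), while its further probe set gave 0.06 in K83 and -0.00 in Jijing88. EIN2, which carries the signal from the receptors, differed by 0.12 in K83 and 0.05 in Jijing88 (limma, adjusted p = 0.564 and 0.843). The response factor gene EREBP1 differed by 0.12 in K83 and 0.11 in Jijing88 (limma, adjusted p = 0.46 and 0.534), and its further probe set gave 0.11 in K83 and 0.35 in Jijing88.

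**Figure D4:**
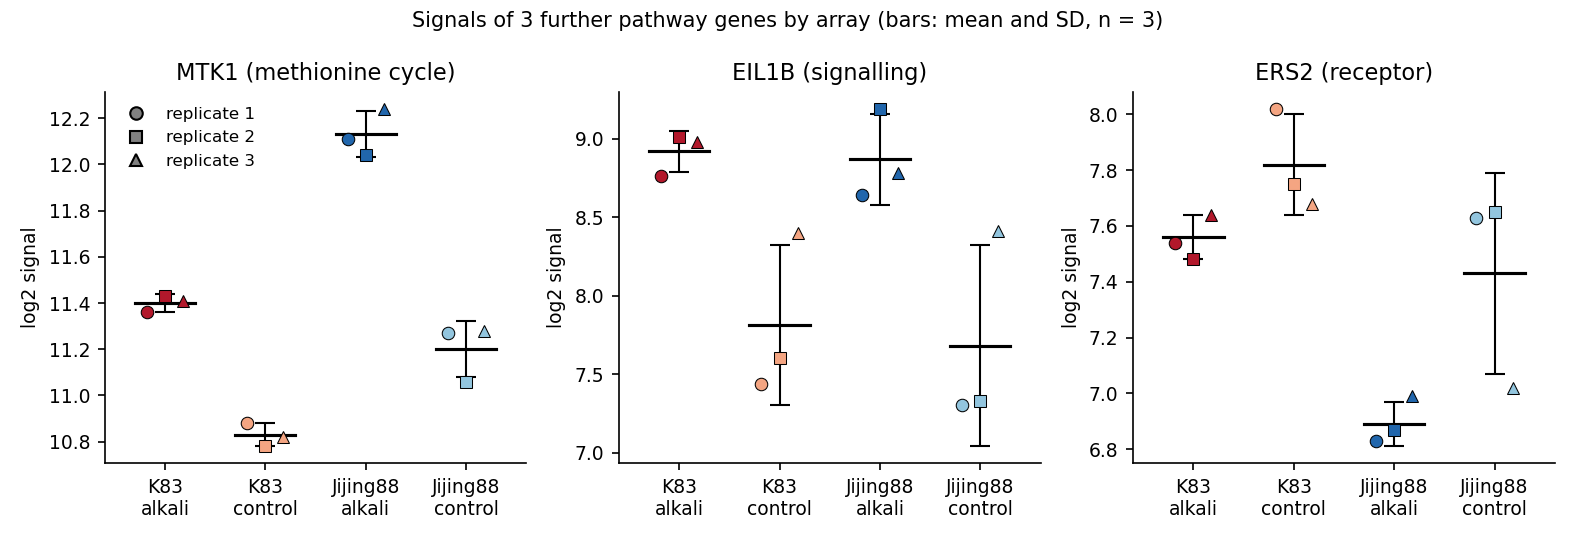
Log2 signals (vertical axes, which do not start at 0) of MTK1, EIL1B and ERS2 in each array, by group; symbols give the replicate, horizontal lines the mean and error bars the SD (n = 3). MTK1 is tight within groups, while the third control array lies nearest to the alkali arrays of its genotype for EIL1B in both genotypes and for ERS2 in Jijing88.

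Between the genotypes, 2 of the 15 genes were called in control medium, MTK1 lower and ARD4 higher in K83, or 13.3%, against 11.6% of probe sets (6.18% higher and 5.44% lower). Under alkali 5 were called, with MTK1, SAM2 and IDI2 lower and ARD4 and ERS2 higher in K83, or 33.3%, against 14.3% of probe sets. With dim probe sets left out, 7459 of 30030 probe sets were called in control medium and 8702 of 30030 under alkali, again larger shares. Since most of the 15 genes were above the array medians, these shares are the closer background. No set test was made here either, and no excess is read from these counts. IDI2 was lower in K83 by -0.57 (limma, adjusted p = 0.00976). By limma, 0 of the 15 genes differed in their alkali effect between the genotypes, against 0.629% of probe sets. At an unadjusted p under 0.05 there were 2, or 13.3%, beside 14.0% of probe sets.

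The named genes whose profile over the 12 arrays was most like each member were ranked by the root-mean-square difference from it, after each probe set was centred on its own mean, among 2453 candidates. Nearest to ACO1, whose own profile has a root mean square of 0.51, were HIRL1, a gene of the hypersensitive-induced reaction family, and BBD2, named for a bifunctional nuclease in basal defence, both at 0.11. A gene annotated as cystatin, an inhibitor of cysteine proteases, followed at 0.12 and Osnph1a, a phototropin gene, at 0.13. All 4 shared with ACO1 higher means under alkali, by 0.82 to 0.96 in K83 and by 0.51 to 0.88 in Jijing88, and lower means in K83 in both media. The genes near each member were picked for likeness over these same arrays, so a shared pattern follows from the choice.

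Nearest to ACS2, whose own profile has a root mean square of 0.55, were GH3-8, an auxin-conjugating enzyme gene, and CLPD1, a Clp protease chaperone gene, both at 0.31. They were followed by OsPPT3, named for a plastid phosphate translocator, at 0.32 and GLN1-3, a cytosolic glutamine synthetase gene, at 0.33. Their alkali differences were 0.75 to 1.40 in K83 and 0.22 to 0.67 in Jijing88. GLN1-3 lay between 4.56 and 5.31, close to the array medians. ACS2 and ACO1 were not near each other by this measure, at 0.59, with ACS2 at rank 1457 from ACO1 and ACO1 at rank 1090 from ACS2. Over 14 other settings, 3 or 4 of the 4 genes nearest to ACO1 stayed among its 4 nearest, and 1 to 4 of those nearest to ACS2, the lowest without K83 alkali replicate 1.

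**Figure D5:**
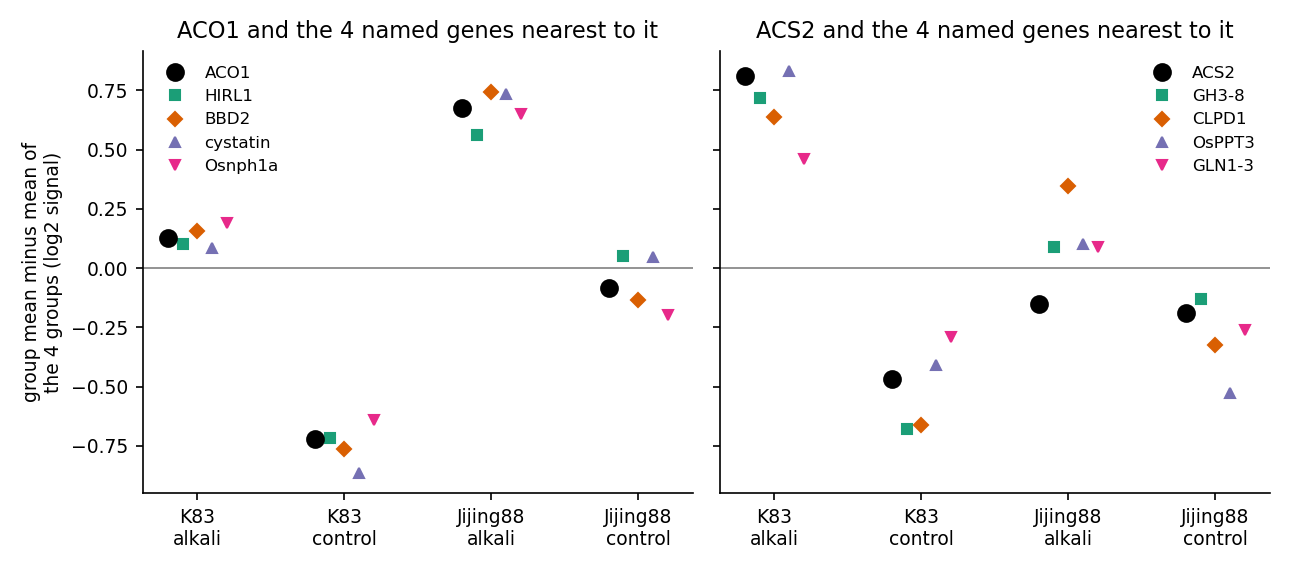
Group means of log2 signal less the mean of the 4 groups (vertical axis) for ACO1 on the left and ACS2 on the right, each with the 4 named genes nearest to it over the 12 arrays; each symbol is the mean of 3 arrays. The genes around ACO1 are lower in K83 than in Jijing88 in both media, and those around ACS2 are highest in K83 under alkali. Such likeness follows from how the genes were picked.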

How the data were processed

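Shoot RNA of 12 samples was measured on Affymetrix rice arrays, and the authors deposited a table of log2 signals, 1 for each probe set on each array. RMA and limma are named in the submitters' processing notes, without versions or roles. The log base was read from the values. RMA puts arrays on 1 scale, which hides a shift common to most transcripts. No further normalization was applied. Of 57381 probe sets, 123 controls were left out. In the annotation 22436 of the rest have 1 gene, 95 have several and 34727 have none. Where a gene has several probe sets, that with the highest mean over the arrays was used.

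Groups were compared per probe set with limma 3.58.1 (R 4.3.3, 4 group means, all 12 arrays, 8 residual degrees of freedom), two-sided, with Benjamini-Hochberg adjustment over all 57258 probe sets and a threshold of 0.05. Group values are means with the SD over 3 arrays. Replicates are labelled biological. The pipeline was also run on simulated arrays with independent noise, none of which stands apart from its group by design. No result here rests on that run.

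The members and lists were chosen with earlier results of these data known. Pathway genes were matched by fixed names, and 18 matches were left out as other kinds of gene, among them 13 with DREB or CBF names. Pathway genes of the synthesis, receptor and signalling lists may all be named, others if called, up to 3 per comparison and direction, the largest first. SAM1, EREBP1, NAS1 and NAS2 fall outside that rule and were named after their values were seen. The 4 named genes nearest to each member are given. Alternatives were another scaling, a replicate block, a filter on dim probe sets, other moderation, array weights, a fit to the 2 groups alone, gene means over probe sets, and each array left out. Sequences and promoter motifs were not analysed here, and genome coordinates are not given because the build behind the array is not given in the sources used here.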

Additional observations from a re-analysis of the deposited data

How the results depend on the processing

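With each of the 12 arrays left out and under 8 other alternatives, ACO1 was lower in K83 in both media, and ACS2 higher in K83 under alkali, past the threshold each time (limma, adjusted p up to 0.0371). For both genes these fits share the arrays on which the gene was chosen. Their p-values are not independent of that choice, and the fits do not lift this limit. For ACO1 in K83 the alkali difference was 0.82 under median centring and 0.88 under quantile normalization, and 0.83 to 0.86 with each array left out, beside 0.85. For ACS2 in Jijing88 it ran from -0.18 to 0.39 with each array left out, negative without control replicate 1 (-0.08) or 2 (-0.18). The difference between the ACS2 effects ran from 0.89 to 1.46. The replicate numbers of the labels are shared between groups, but 7 of 18 same-number pairs correlated above 0.1 (-0.0765 to 0.216), which is short of every pair, so the numbers were not taken to pair the samples. Whether arrays of 1 number share anything is not stated. With the replicate block the difference between the ACS2 effects was 1.24 and did not pass (limma, adjusted p = 0.0587). No genotype call for ACO1 or ACS2 changed with the block, while that of SAM2 under alkali was lost (adjusted p = 0.0502).

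Of 4789 probe sets called in Jijing88, 2666 to 5463 were called with each array left out and 2768 in a fit to the 2 groups alone. The count in K83, 3700, ran from 1721 to 4693. The 360 called for the difference between the effects ran from 107 to 646, and were 633 without dim probe sets, 656 with limma-trend and 658 with array weights. Median centring called 414, of which 110 were higher and 304 lower in K83, while 153 of the 360 were higher and 207 lower. Of the 15 pathway genes, 5 were called in Jijing88, 3 in the fit to the 2 groups alone and 2 to 5 with each array left out. The 2 called in K83 ran from 1 to 3, the 2 called between genotypes in control medium were 4 with limma-trend, and the 0 called for the difference between the effects ran from 0 to 1. The LOC4347224 genotype difference in control medium, 0.07, ran from -0.24 (without Jijing88 control replicate 2) to 0.45 (without replicate 3). Fits without an array have fewer samples, and the cause was not tested otherwise.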

Other observations

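LOC4347224 was singled out after its values were seen. Its probe set, Os.12201.1.S1_at, carries the cluster number of the ACO1 probe set, and in RefSeq it lies on chromosome 9 with 1 gene between it and ACO1. The annotation gives it no name. Its log2 signals were 12.41, 12.24 and 12.44 in K83 alkali arrays, against 11.98, 11.89 and 11.79 in K83 control arrays. In Jijing88 they were 12.87, 12.68 and 12.83 under alkali, against 11.68, 11.19 and 12.57 in control medium. Alkali arrays were above control arrays in both genotypes, as for ACO1, by 0.48 in K83 and 0.98 in Jijing88 (1.35 without Jijing88 control replicate 3). In control medium, where ACO1 was lower in K83, its K83 and Jijing88 means were 11.89 and 11.82 with overlapping arrays. Whether the probes of the 2 sets share targets was not tested.

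In both genotypes the third control array had the highest signal of its group for ACS2 (6.46 in K83, 7.21 in Jijing88), EIL1B (8.40 in K83, 8.41 in Jijing88) and EIL1A (12.49 in K83, 12.79 in Jijing88). This did not hold for NAS1 and NAS2 in K83. There the third control array was at 4.15 for NAS1, against 5.39 and 4.45 in the first and second. For NAS2 it was at 5.42, against 6.15 and 5.31. All these genes were picked out after their values were seen, and the share of all probe sets with this order was not counted. What arrays with the same replicate number have in common is not stated.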
